A study of Mus musculus with 6 samples.

Results

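The proteasome genes of the mouse left ventricle were followed between hearts with cardiomyocyte-specific RBM20 overexpression and control hearts. A gene belonged to the set when its symbol was Psm followed by a letter from a to g and a number, with or without a final letter. The rule found 50 of the 31273 gene symbols in the deposited table and used no measured value. By known role, 14 encode the constitutive 20S core (7 alpha and 7 beta subunits), 3 the immunoproteasome subunits, 17 the 19S regulatory particle (6 ATPases and 11 other subunits) and 5 activators or an inhibitor of the core. Another 7 encode assembly chaperones, 2 encode tissue-restricted core subunits, and 2 match the symbol without being established subunits (Psmc3ip, a meiotic recombination factor, and Psme2b, a near-copy of Psme2).

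The proteasome degrades proteins tagged with ubiquitin. Its barrel-shaped 20S core holds the proteolytic sites on inner beta subunits between outer rings of alpha subunits, and the 19S particle recognises, unfolds and feeds in the tagged proteins. Interferon signalling can replace the proteolytic beta subunits with immunoproteasome forms, and other caps can bind the core in place of the 19S particle. In heart muscle the system turns over damaged and surplus sarcomere proteins.

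Polyadenylated RNA was sequenced in 6 libraries, 3 labelled with cardiomyocyte-specific RBM20 overexpression and 3 labelled control. The series describes a knock-in of RBM20, a splicing regulator of heart muscle, that is switched on in cardiomyocytes by tamoxifen, and its question is the part of RBM20 in dilated cardiomyopathy. The labels give neither the alleles, the tamoxifen treatment, the age nor the sex of either group. Their only sign of separate animals is a different number in each sample title. The titles carry the letters cre for the overexpression samples and cki for the control samples, but the genotype labels decided the grouping.

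Values were in TPM, a relative transcript abundance that is corrected for gene length and has the same total in each library. Rbm20 stood at 321, 913 and 907 TPM in the overexpression libraries, against 74.9, 90.9 and 79.5 TPM in the control libraries, so the targeted gene followed the labels. Esr1, the oestrogen receptor gene whose hormone-binding part is used in many tamoxifen-inducible Cre proteins, stood at 218, 53.0 and 199 TPM in the overexpression libraries, against at most 0.415 TPM in the control libraries. A Cre transgene, any tamoxifen treatment and RBM20 therefore cannot be told apart as sources of a difference between the groups. Estimated depth was 51.0 to 90.0 M read ends in overexpression libraries, against 41.6 to 70.6 M in control libraries. Overexpression replicate 1 alone held the Y-linked transcript Ddx3y, at 88.1 TPM, with Xist at 0.0172 TPM, against 34.4 to 62.6 TPM of Xist in the other 5 libraries. By these sex-linked transcripts it came from another animal than the others. The overexpression group was thus mixed in sex-linked transcripts and the control group was not. The part of sex in the differences was not tested. Mitochondrially encoded transcripts took 36.7% to 41.0% of the TPM in overexpression libraries, against 48.3% to 52.0% in control libraries. The median log2 difference of all 12404 tested genes was 0.55, so most genes were higher in the overexpression group on this scale. Dividing each library by a median-of-ratios factor brought that median to 0.01, and both scales are given for the proteasome genes.

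In deposited TPM nearly every proteasome gene was higher in overexpression hearts, and after rescaling the rises were mainly those of 19S subunits. Of the 48 genes that reached a mean of 1 TPM, 45 rose in overexpression hearts, against 59.0% of all tested genes, and 1 fell, Psme4, against 9.09% (limma, adjusted p under 0.05, the threshold used throughout). The remaining 2, Psme1 and Psmg1, were not called, and over all tested genes 68.1% were called in either direction. In 45 genes every overexpression library lay above every control library, against 62.1% of all tested genes, and in 1 gene every one lay below, against 10.4%. After rescaling, 22 rose, against 22.2% of all tested genes, and 4 fell (Psme4, Psme1, Psmg1 and Psmg2), against 24.0%, and 46.2% of all tested genes were called in either direction. The rescaled libraries did not overlap in 27 genes above and 5 below, against 28.2% and 28.8% of all tested genes. All 22 rescaled rises were of constitutive subunits, 16 of the 17 in the 19S particle and 6 of the 14 in the 20S core. Without control replicate 2 the rescaled rises numbered 14, because Psma1, Psma3, Psma6, Psmc5, Psmd2, Psmd4, Psmd8 and Psmd12 were no longer called. In that fit 2164 of all 12489 tested genes rose.

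The median log2 difference in deposited TPM was 0.84 over the 14 core genes and 1.05 over the 17 genes of the 19S particle, beside 0.55 over all tested genes. In rescaled values these medians were 0.22 and 0.43, beside 0.01. Of the 31 constitutive subunit genes, 30 lay above the median of all tested genes in deposited TPM, and Psmb2 lay below it. Their summed level was 5423 ± 329 TPM in the overexpression group and 2801 ± 96.6 TPM in the control group (SD, n = 3 each), a 1.94-fold ratio. The ratio was 2.07-fold for the 19S genes and 1.80-fold for the core genes. In a bulk sample, more cells of a type and more RNA per cell cannot be told apart.

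**Figure D1:**
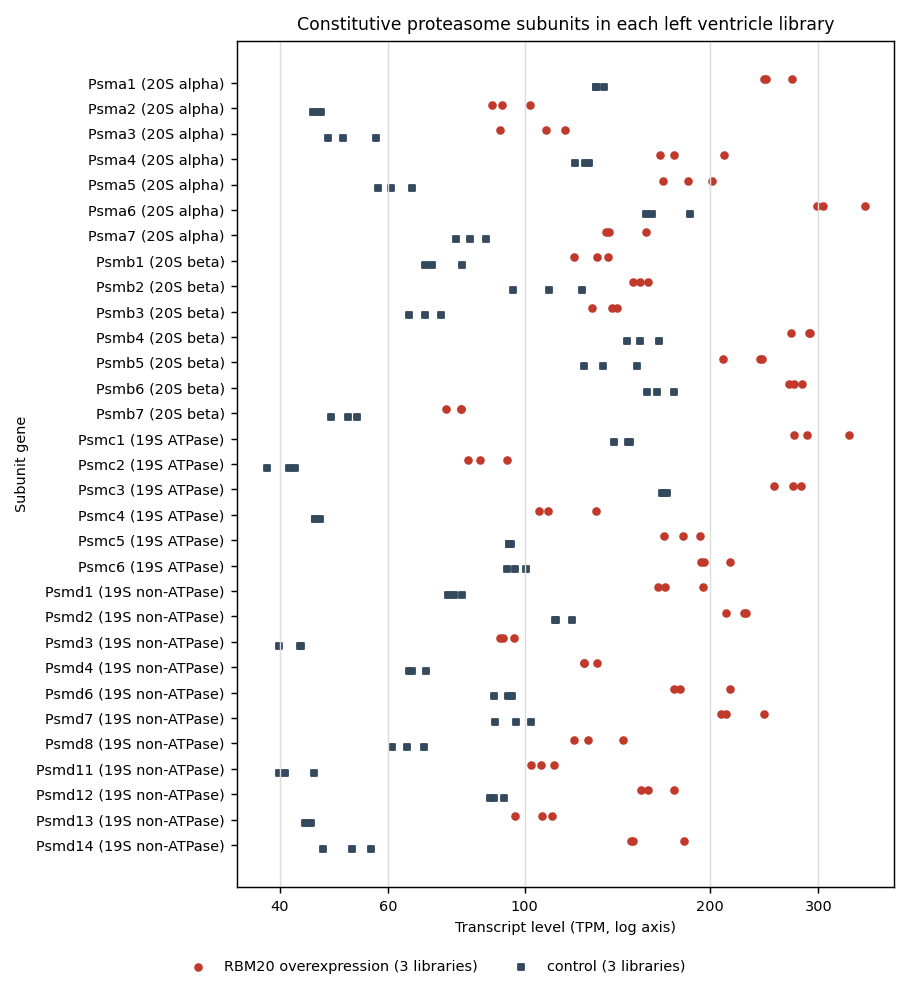
Level of the 31 constitutive subunit genes in each library, in TPM on a log axis, with red circles for the 3 overexpression libraries and dark squares for the 3 control libraries. Every overexpression point lies to the right of every control point of its gene, which was also so for 62.1% of all tested genes.

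Markers of other cell types moved as well. Over all tested genes, 59.0% rose and 9.09% fell in deposited TPM, and 22.2% rose and 24.0% fell after rescaling. Of 16 leukocyte markers, 10 were tested and all 10 rose in deposited TPM, 7 of them also after rescaling. Their summed level was 1009, 756 and 532 TPM in overexpression replicates 1 to 3, against 255 to 341 TPM in control libraries, while the T cell genes Cd3e and Cd8a were each listed at 0 in 1 control library. Fcer1g, an Fc receptor chain, was 3.89-fold higher (log2 difference 1.87, limma adjusted p = 5.01e-05), the macrophage protein gene Cd68 4.41-fold (2.01, adjusted p = 5.83e-05) and the integrin gene Itgam 7.17-fold (2.41, adjusted p = 0.000132). Of 7 fibroblast markers 6 rose, with the matrix genes Postn 44.8-fold, Col1a1 8.43-fold and Col1a2 6.23-fold higher, and their sum was 1087 to 1600 TPM in overexpression libraries, against 377 to 492 TPM in control libraries. After rescaling 4 fibroblast markers rose and 1 fell, Dcn, at -0.49. None of 6 endothelial markers was called in deposited TPM and 2 fell after rescaling, Pecam1 and Tek. Their 3 smallest p-values were those of Cdh5 (log2 difference 0.42, adjusted p = 0.0567), Vwf (0.43, adjusted p = 0.0873) and Emcn (0.36, adjusted p = 0.145). Of 8 ventricular cardiomyocyte markers, 2 rose (the transcription factor Nkx2-5, 2.02-fold, and the Z-disc gene Actn2, 1.66-fold) and 3 fell, among them Tnni3 to 0.611 of the control mean. After rescaling 1 of the 8 rose, Nkx2-5, and 6 fell, at a median log2 difference of -0.83, while Actn2 was not called (0.10, limma adjusted p = 0.463). The cardiomyocyte sum was 28207 to 31387 TPM in overexpression libraries, against 34968 to 38643 TPM in control libraries, so the defining markers of ventricle muscle were abundant in both groups. The part of cell makeup in the proteasome differences was not tested.

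Promoter sequence from RefSeq is shown for 4 genes on which the comparisons turn: Psmd14, with the largest difference, Psme4, the gene that fell, and Psmb5 and Psmb8, which encode the constitutive and the interferon-induced form of the same proteolytic subunit. Each is the 250 bases before the RefSeq start in GRCm38.p6, written 5′ to 3′ on the gene's strand, with motif matches in capitals. The Psmb8 window lies wholly inside the gene as placed by GENCODE M21, where Psmb8 begins at chr17:34197721. The search covered 4 motifs on both strands. TGACNNNGC is the core of the antioxidant response element bound by NRF factors. TTCNNNGAA is bound by STAT factors, and CCAAT is bound by NF-Y. The interferon-stimulated response element was searched as a separate motif with other letters than TTCNNNGAA.
Psmd14, chr2:61711444-61711693, plus strand: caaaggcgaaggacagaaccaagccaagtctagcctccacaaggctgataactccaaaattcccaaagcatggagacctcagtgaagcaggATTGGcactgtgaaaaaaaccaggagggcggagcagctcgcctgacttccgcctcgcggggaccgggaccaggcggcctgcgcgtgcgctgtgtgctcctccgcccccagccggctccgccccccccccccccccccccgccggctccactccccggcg
Psme4, chr11:30771525-30771774, plus strand: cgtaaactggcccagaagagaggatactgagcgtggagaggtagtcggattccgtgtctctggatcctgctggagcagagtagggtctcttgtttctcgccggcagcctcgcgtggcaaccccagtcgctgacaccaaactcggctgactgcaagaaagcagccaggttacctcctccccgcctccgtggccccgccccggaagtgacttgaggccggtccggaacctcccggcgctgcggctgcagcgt
Psmb5, chr14:54617996-54618245, minus strand: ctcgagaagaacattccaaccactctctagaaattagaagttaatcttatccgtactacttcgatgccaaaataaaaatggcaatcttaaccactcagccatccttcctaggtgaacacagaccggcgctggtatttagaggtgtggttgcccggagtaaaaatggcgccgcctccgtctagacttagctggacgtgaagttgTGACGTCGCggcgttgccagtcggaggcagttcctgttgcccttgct
Psmb8, chr17:34197945-34198194, plus strand: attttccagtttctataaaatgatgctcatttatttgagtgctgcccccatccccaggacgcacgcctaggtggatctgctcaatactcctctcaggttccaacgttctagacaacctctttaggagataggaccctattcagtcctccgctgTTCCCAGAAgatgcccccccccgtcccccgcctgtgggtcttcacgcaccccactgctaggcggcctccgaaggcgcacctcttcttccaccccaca

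The Psmd14 window held CCAAT on the opposite strand, the Psmb5 window TGACNNNGC, the Psmb8 window TTCNNNGAA, and the Psme4 window none of the 4 motifs. RefSeq windows were found for 42 of the 50 genes, 45 windows in all, and were set beside 32851 windows of all genes. TGACNNNGC lay in 11.1% of the proteasome windows (those of Psmb5, Psmb6, Psmc6, Psmd12 and Psmd9), against 10.2% of all windows. The interferon-stimulated element lay in 6.67% (Psmb3, Psmd4 and Psmd9), against 2.98% of all windows. TTCNNNGAA lay in 4.44% (Psmb8 and Psmg1), against 7.02%, and CCAAT in 33.3%, against 33.8%. These matches describe letters in a window and show no binding.

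All 7 alpha subunit genes, which form the outer rings and the gate of the core, rose in deposited TPM. Psma5 had the largest difference of the core, with 184, 202 and 168 TPM in overexpression libraries, against 65.6, 60.6 and 57.7 TPM in control libraries. Its lowest overexpression library was thus over every control library by a wide margin, at a 3.01-fold ratio of means (log2 difference 1.57, SE 0.10, limma adjusted p = 1.42e-05), and it rose after rescaling too (0.95, adjusted p = 8.54e-05). Psma6, the most abundant core gene, had 298, 357 and 306 TPM in overexpression libraries, against 185, 161 and 157 TPM in control libraries. Its rescaled log2 difference was 0.30 (limma adjusted p = 0.0359), a call that ended without control replicate 2, control replicate 3, overexpression replicate 2 or overexpression replicate 3. The call also ended with no filter (limma adjusted p = 0.0587) and in an untrended fit (0.0689). Psma1 (1.93-fold), Psma2 (2.04-fold) and Psma3 (2.03-fold) rose under both scalings, with rescaled log2 differences of 0.32, 0.40 and 0.38. The rescaled call of Psma3 also ended without control replicate 3 (limma adjusted p = 0.0657). Psma2 was also the least abundant alpha gene, at 94.2 ± 7.03 TPM in the overexpression group and 46.1 ± 0.684 TPM in the control group (SD, n = 3 each). Psma4 differed least, with 211, 175 and 166 TPM in overexpression libraries, against 127, 125 and 121 TPM in control libraries. Its log2 difference was 0.55 in deposited TPM (limma adjusted p = 0.00171) and -0.07 after rescaling (adjusted p = 0.624), so its direction turned with the scale.

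All 7 beta subunit genes also rose in deposited TPM, by less at the median (log2 difference 0.75) than the alpha genes (0.94). Psmb3, a structural subunit, had the largest difference, with 139, 141 and 129 TPM in overexpression libraries, against 73.1, 68.8 and 64.8 TPM in control libraries. It was 1.98-fold higher (log2 difference 0.97, SE 0.0892, limma adjusted p = 5.63e-05) and the only beta gene that also rose after rescaling (0.35, adjusted p = 0.00883). The genes of the 3 proteolytic subunits were Psmb5, 1.69-fold higher, Psmb6, 1.66-fold higher, and Psmb7, 1.51-fold higher, and after rescaling none of the 3 was called, with log2 differences of 0.13, 0.10 and -0.03. Psmb6 was the most abundant beta gene of the control group, at 275 ± 6.78 TPM in the overexpression group and 166 ± 8.48 TPM in the control group (SD, n = 3 each), and Psmb7 the least abundant in both, at 77.4 ± 2.57 and 51.2 ± 2.52 TPM. Psmb4, another structural subunit, was the most abundant beta gene of the overexpression group, at 284 ± 11.4 TPM there and 155 ± 9.43 TPM in the control group. Psmb2 differed least of all constitutive subunits, with 150, 159 and 154 TPM in overexpression libraries, against 124, 110 and 95.8 TPM in control libraries, 1.40-fold. Its log2 difference was 0.49 in deposited TPM (limma adjusted p = 0.00348) and -0.13 after rescaling (adjusted p = 0.362).

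The 17 genes of the 19S particle all rose in deposited TPM, and after rescaling the exception was Psmc3. Among the 6 ATPases, which unfold the substrate, Psmc4 had the largest difference, with 106, 131 and 109 TPM in overexpression libraries, against 46.5, 45.7 and 45.7 TPM in control libraries. It was 2.51-fold higher (log2 difference 1.30, SE 0.103, limma adjusted p = 3.21e-05) and rose after rescaling (0.68, adjusted p = 0.000462). Psmc3 had the smallest difference and the highest ATPase level of the control group, with 282, 273 and 255 TPM in overexpression libraries, against 168, 167 and 171 TPM in control libraries. Its ratio of means was 1.60-fold, and its rescaled log2 difference of 0.05 was not called (limma adjusted p = 0.645). Psmc1, the most abundant ATPase gene of the overexpression group, averaged 299 ± 33.0 TPM there and 145 ± 4.85 TPM in the control group (SD, n = 3 each). Psmc2, the least abundant, averaged 86.4 ± 6.58 TPM in the overexpression group and 40.7 ± 2.23 TPM in the control group. The rescaled log2 differences were 0.41 for Psmc1, 0.45 for Psmc2, 0.30 for Psmc5 and 0.43 for Psmc6, all called.

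Psmd14 encodes the deubiquitinase that cuts ubiquitin chains off substrates as they enter the particle, and lies at chr2:61711694-61800376 on the plus strand (GRCm38, GENCODE M21). It had 150, 182 and 149 TPM in overexpression libraries, against 56.4, 52.4 and 47.0 TPM in control libraries. The groups lay far apart, and the 3.09-fold ratio was the largest of the 31 constitutive subunits (log2 difference 1.61, SE 0.113, limma adjusted p = 1.94e-05; 0.99 after rescaling, adjusted p = 0.000118). Psmd11, a lid subunit, had the next largest difference of the 19S genes. It had 112, 106 and 103 TPM in overexpression libraries, against 40.8, 45.5 and 39.9 TPM in control libraries. Psmd11 was 2.54-fold higher (log2 difference 1.33, limma adjusted p = 1.93e-05) and rose after rescaling (0.71, adjusted p = 0.000344). Psmd13 (2.35-fold), Psmd7 (2.31-fold), Psmd1 (2.29-fold), the large base scaffold, and Psmd3 (2.21-fold) rose with rescaled log2 differences of 0.59, 0.57, 0.56 and 0.51. Psmd6 (2.04-fold), Psmd8 (2.02-fold), Psmd2 (1.95-fold) and the ubiquitin receptor gene Psmd4 (1.90-fold) rose with rescaled log2 differences of 0.39, 0.38, 0.33 and 0.30. The rescaled call of Psmd4 also ended without control replicate 3 (limma adjusted p = 0.0656). Psmd2 was the most abundant non-ATPase gene in both groups, at 223 ± 9.11 TPM in the overexpression group and 115 ± 4.17 TPM in the control group (SD, n = 3 each). The least abundant were Psmd3 in the overexpression group, at 93.2 ± 2.56 TPM, and, in the control group, Psmd3 and Psmd11, both at 42.1 TPM. Psmd12 had the smallest difference of the non-ATPase genes, 155, 175 and 158 TPM in overexpression libraries, against 87.8, 92.6 and 89.3 TPM in control libraries. Its rescaled log2 difference of 0.22 (limma adjusted p = 0.0373) was called with all libraries and lost the call when any library other than overexpression replicate 1 was left out. It also lost the call in an untrended fit (limma adjusted p = 0.0890).

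**Figure D2:**
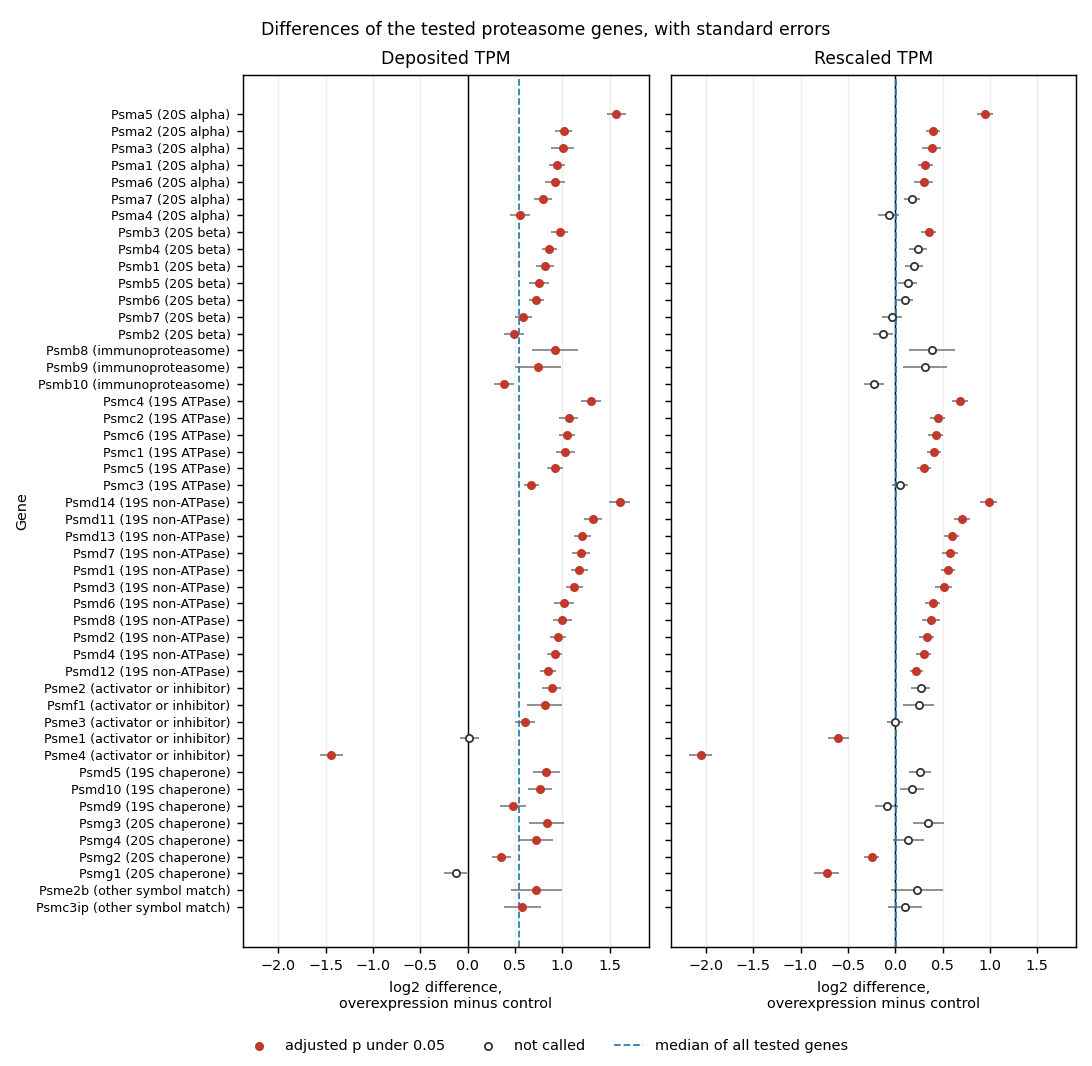
Log2 difference (overexpression minus control) of the 48 tested genes by role, with limma standard errors as bars, in deposited TPM on the left and after rescaling on the right; filled points were called. In deposited TPM 45 points are called to the right of 0 and Psme4 to the left, and after rescaling 16 of the 17 genes of the 19S particle are called to the right.

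The 3 immunoproteasome genes were low in both groups and rose in deposited TPM, but none was called after rescaling. Psmb8 (chr17:34197721-34201454, plus strand) and Psmb9 (chr17:34181987-34187764, minus strand) are neighbours in the major histocompatibility region, and Psmb10 lies on chromosome 8. Psmb8 had 13.2, 8.32 and 6.22 TPM in overexpression libraries, against 4.92, 3.50 and 4.27 TPM in control libraries (log2 difference 0.92, SE 0.246, limma adjusted p = 0.00956; 0.39 after rescaling, adjusted p = 0.230). Psmb9 had 5.11, 2.61 and 2.29 TPM in overexpression libraries, against 1.46, 1.52 and 1.50 TPM in control libraries (0.74, adjusted p = 0.0223; 0.32 after rescaling, adjusted p = 0.295). Overexpression replicate 1 was the highest library for both genes, and was also the highest for the summed leukocyte markers. Without it the log2 differences were 0.66 for Psmb8 (limma adjusted p = 0.0204) and 0.47 for Psmb9 (adjusted p = 0.0438) in deposited TPM, and 0.13 and 0.05 after rescaling. The call for Psmb9 in deposited TPM ended without control replicate 3 (limma adjusted p = 0.0588), with no filter (0.0599) and without mitochondrially encoded genes (0.0749). Psmb10, the most abundant of the 3, had 35.2, 30.7 and 31.6 TPM in overexpression libraries, against 26.0, 24.4 and 23.6 TPM in control libraries. Its log2 difference was 0.38 in deposited TPM (limma adjusted p = 0.0104) and -0.22 after rescaling (adjusted p = 0.128), where every overexpression library lay below every control library.

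The ratio of an immunoproteasome gene to its constitutive counterpart within a library is not altered by a factor per library. Psmb8 to Psmb5 was 0.0548, 0.0342 and 0.0296 in overexpression libraries, against 0.0323, 0.0261 and 0.0342 in control libraries (exact permutation test, two-sided, p = 0.4, 0.6 adjusted over 3 ratios). Psmb9 to Psmb6 was 0.0187, 0.00927 and 0.00853 in overexpression libraries, against 0.00836, 0.00923 and 0.00949 in control libraries (exact permutation p = 0.6, adjusted 0.6). Psmb10 to Psmb7 was 0.446, 0.413 and 0.400 in overexpression libraries, against 0.502, 0.503 and 0.443 in control libraries (exact permutation p = 0.2, adjusted 0.6). The groups overlapped in all 3 ratios, and 3 libraries against 3 allow no exact p below 0.1. The log2 difference of the Psmb9 to Psmb6 ratio was 0.34, and -0.02 without overexpression replicate 1. Psmb9 shares 212 exonic bases with Tap1, Psmb8 498 with Gm20496 and Psmb7 405 with Nek6, all on the opposite strand in GENCODE M21. Psmb5 shares 109 exonic bases with Mir686 on the same strand. Whether the deposited values kept strands apart is not given in the sources used here.

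Of 14 genes of antigen processing and its induction, which work with the immunoproteasome, 12 rose in deposited TPM, against 59.0% of all tested genes, and none fell. Among the 12, Nlrc5, a class I transactivator, averaged 1.95 TPM in the overexpression group and 0.870 TPM in the control group, so it reached the filter only through the overexpression group. After rescaling 2 rose and 1 fell (Erap1, an aminopeptidase that trims peptides), against 22.2% and 24.0% of all tested genes. Pdia3, a chaperone of the peptide-loading complex, was 2.25-fold higher (log2 difference 1.15, limma adjusted p = 6.48e-05), and Tap1, a subunit of the peptide transporter, 2.80-fold (1.19, adjusted p = 0.000440). Both rose after rescaling, by 0.53 and 0.69. Tapbp, the bridge between transporter and class I molecules, was 1.80-fold higher (0.82, adjusted p = 0.000321) and was not called after rescaling.

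**Figure D3:**
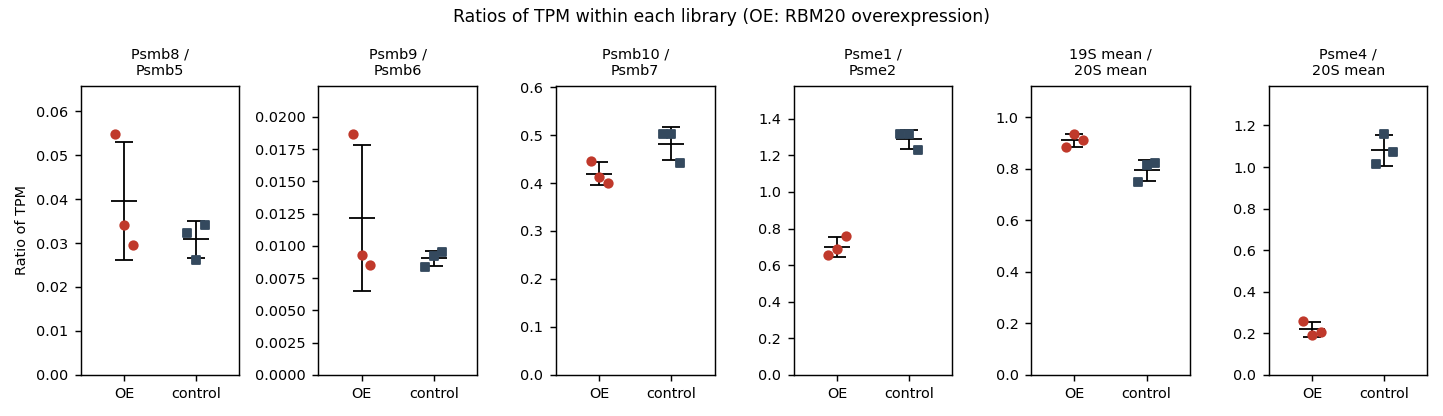
Ratios of TPM within each library for 6 gene or subunit pairs, with a point per library and the mean and SD of 3 libraries as bars; red circles are overexpression and dark squares control. The immunoproteasome ratios overlap between groups, while Psme1 to Psme2 and Psme4 to the core mean are lower in all 3 overexpression libraries.

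The activator genes did not share a direction. Psme4, at chr11:30771726-30880361 on the plus strand, encodes PA200, a nuclear cap that opens the core without ATP. It had 47.8, 37.1 and 35.8 TPM in overexpression libraries, against 110, 115 and 104 TPM in control libraries. No library overlapped, and the level was 2.73-fold lower in overexpression hearts (log2 difference -1.44, SE 0.123, limma adjusted p = 4.41e-05; -2.05 after rescaling, adjusted p = 2.03e-05). Its ratio to the mean level of the 14 core genes was 0.259, 0.192 and 0.206 in overexpression libraries, against 1.01, 1.16 and 1.07 in control libraries. Psme4 was thus about as abundant as an average core subunit in control hearts and well below it in overexpression hearts.

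Psme1 and Psme2 encode the alpha and beta subunits of the interferon-inducible PA28 ring, and lie near each other on chromosome 14, Psme1 at 55578123-55581529 on the plus strand and Psme2 at 55587441-55591113 on the minus strand. Their values differed in direction after rescaling. Psme1 had 76.5, 74.5 and 76.1 TPM in overexpression libraries, against 84.3, 72.8 and 67.9 TPM in control libraries. Its groups overlapped in deposited TPM (log2 difference 0.02, limma adjusted p = 0.873), and it fell after rescaling (-0.60, adjusted p = 0.00303). Psme2 had 117, 108 and 100 TPM in overexpression libraries, against 64.0, 55.3 and 55.2 TPM in control libraries. It rose in deposited TPM (log2 difference 0.89, limma adjusted p = 0.000151) and was not called after rescaling (0.27, adjusted p = 0.0646). The ratio of Psme1 to Psme2, which a factor per library does not alter and which was chosen with its values known, was 0.654, 0.687 and 0.760 in overexpression libraries, against 1.32, 1.32 and 1.23 in control libraries. By the deposited values Psme2 was the more abundant transcript in every overexpression library and Psme1 in every control library. Psme2b, whose transcript is 99.4% identical to that of Psme2 over 794 aligned bases, had 8.10, 4.87 and 4.22 TPM in overexpression libraries, against 1.84, 3.58 and 3.72 TPM in control libraries. The values of Psme2b and Psme2 are uncertain, because reads of such near-copies can be exchanged in counting. Which of Psme1 and Psme2 was the more abundant is therefore uncertain too.

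Psme3 encodes the nuclear PA28 gamma ring, which is not induced by interferon. It had 66.6, 66.5 and 54.7 TPM in overexpression libraries, against 39.1, 42.4 and 40.1 TPM in control libraries, and rose in deposited TPM (log2 difference 0.61, limma adjusted p = 0.00126) but not after rescaling (-0.01, adjusted p = 0.961). Psmf1, the gene of the proteasome inhibitor PI31, had 11.3, 15.8 and 11.5 TPM in overexpression libraries, against 5.53, 6.96 and 8.21 TPM in control libraries. Its log2 difference was 0.81 (limma adjusted p = 0.00422) and 0.25 after rescaling (adjusted p = 0.256). Of the 5 activator and inhibitor genes, 3 rose and 1 fell in deposited TPM, against 59.0% and 9.09% of all tested genes. After rescaling none rose and 2 fell, against 22.2% and 24.0%.

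**Figure D4:**
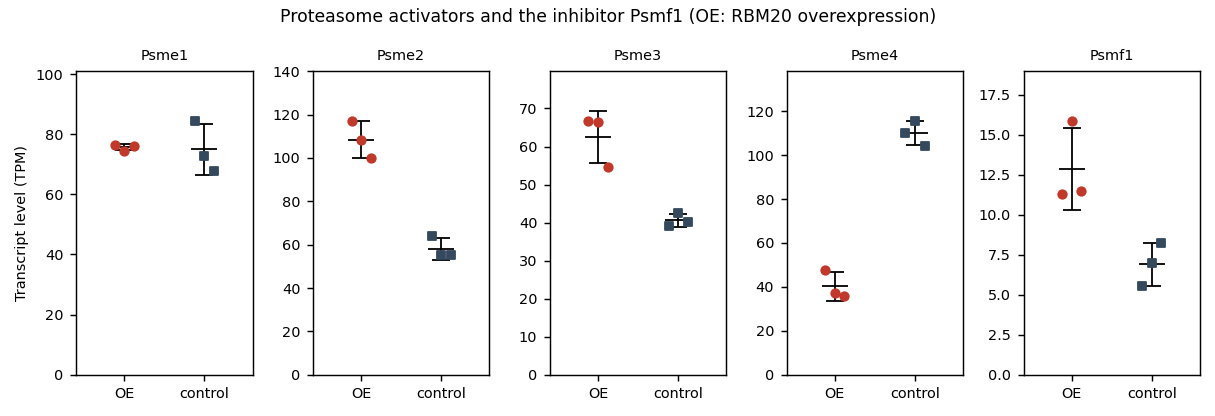
Level of the 4 activator genes and the inhibitor gene Psmf1 in each library, in TPM, with the mean and SD of 3 libraries as bars; red circles are overexpression and dark squares control. Psme4 is lower in every overexpression library (35.8 to 47.8 TPM, against 104 to 115 TPM in control libraries), Psme1 overlaps, and Psme2, Psme3 and Psmf1 are higher.

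The 4 chaperone genes of core assembly also differed among themselves. Psmg1 and Psmg2 encode the PAC1 and PAC2 proteins, which hold the alpha ring during its assembly. Psmg1 had 18.0, 19.98 and 22.3 TPM in overexpression libraries, against 23.8, 20.9 and 21.2 TPM in control libraries. It was not called in deposited TPM (log2 difference -0.13, limma adjusted p = 0.367) and fell after rescaling (-0.72, adjusted p = 0.00284). Beside the mean of the core genes it stood at 0.0975, 0.103 and 0.128 in overexpression libraries, against 0.219, 0.210 and 0.218 in control libraries, so no library overlapped in this ratio. Psmg2 had 33.7, 38.4 and 35.0 TPM in overexpression libraries, against 28.0, 28.1 and 26.6 TPM in control libraries. It rose in deposited TPM (log2 difference 0.36, limma adjusted p = 0.0117) and fell after rescaling (-0.25, adjusted p = 0.0405). The second call ended when any library was left out and in an untrended fit (limma adjusted p = 0.0681). Psmg3 and Psmg4, the PAC3 and PAC4 genes, were 2.13-fold and 1.74-fold higher in deposited TPM (limma adjusted p = 0.00384 and 0.00671) and were not called after rescaling.

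The 3 chaperones of 19S assembly, Psmd5, Psmd9 and Psmd10, rose in deposited TPM, with ratios of means of 1.88-fold, 1.44-fold and 1.76-fold, and none was called after rescaling. Psmd10, also known as gankyrin, was the most abundant of them, at 18.7 ± 0.814 TPM in the overexpression group and 10.7 ± 1.26 TPM in the control group (SD, n = 3 each). Psmd5 was the least abundant in the control group, at 14.7 ± 1.70 TPM in the overexpression group and 7.80 ± 0.864 TPM in the control group, and Psmd9 in the overexpression group, at 12.9 ± 1.37 TPM there and 8.94 ± 0.954 TPM in the control group. Psmd9 shares 1849 exonic bases with the opposite-strand gene Gm26745, so its level is uncertain. The largest same-strand overlaps were those of Psmd1 with Gm21972 (301 exonic bases) and of Psmg3 with Gm26938 (280). Reads there cannot be assigned by strand. Psmc3ip, a low transcript, rose in deposited TPM (1.66-fold, limma adjusted p = 0.0257) and was not called after rescaling.

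The 2 genes that were not tested encode subunits of the testis and the thymus. Psma8, the testis alpha subunit, had 0.589, 1.83 and 0.920 TPM in overexpression libraries, against 0.595, 0.478 and 0.421 TPM in control libraries, and the groups overlapped. Psmb11, the thymic beta subunit, was listed at 0.0242, 0 and 0.0430 TPM in overexpression libraries and at 0 in all control libraries.

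The makeup of the summed proteasome transcripts, which a factor per library does not alter, differed between the groups. The 19S genes held 48.2% ± 0.792 of it in the overexpression group and 42.7% ± 1.08 in the control group (SD, n = 3 each). The core genes held 43.6% ± 0.458 in the overexpression group and 44.3% ± 1.16 in the control group, a difference smaller than the spread of the control libraries. The activator and inhibitor genes held 5.08% ± 0.320 in the overexpression group and 9.02% ± 0.190 in the control group. The immunoproteasome genes held 0.765% ± 0.130 in the overexpression group and 0.943% ± 0.0244 in the control group. The mean 19S level divided by the mean core level was 0.887, 0.936 and 0.911 in overexpression libraries, against 0.749, 0.814 and 0.822 in control libraries, without overlap.

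Genes that serve the proteasome were read from lists of associated factors. Of 11 assembly factors and bound cofactors, 10 rose and 1 fell in deposited TPM, against 59.0% and 9.09% of all tested genes. After rescaling 3 rose and 1 fell, against 22.2% and 24.0%. The ubiquitin ligase gene Ube3c was 2.27-fold higher (log2 difference 1.15, limma adjusted p = 6.79e-05; 0.54 after rescaling), the ubiquitin receptor gene Adrm1 2.23-fold (1.11, adjusted p = 7.52e-05; 0.51) and the thioredoxin-like gene Txnl1 2.50-fold (1.28, adjusted p = 0.000126; 0.66). Usp14, the gene of a deubiquitinase bound to the 19S particle, was the one that fell and was named after its values were seen. It had 19.2, 10.9 and 11.3 TPM in overexpression libraries, against 23.2, 23.7 and 23.3 TPM in control libraries (log2 difference -0.76, limma adjusted p = 0.00813; -1.35 after rescaling, adjusted p = 0.00111). Psmd14 and Usp14, both genes of deubiquitinases of the 19S particle, were thus called in opposite directions. Uchl5, the gene of another deubiquitinase in the list, rose in deposited TPM (log2 difference 0.45, limma adjusted p = 0.0258). It was not called after rescaling (-0.145, limma adjusted p = 0.404).

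Of 11 genes of substrate delivery, 10 rose and none fell in deposited TPM, against 59.0% and 9.09% of all tested genes. After rescaling 3 rose and 1 fell, against 22.2% and 24.0%. The segregase gene Vcp had 363, 395 and 373 TPM in overexpression libraries, against 174, 168 and 166 TPM in control libraries (log2 difference 1.15, limma adjusted p = 1.74e-05; 0.52 after rescaling, adjusted p = 0.00124). Its cofactor gene Nploc4 was 2.25-fold higher (1.14, adjusted p = 7.85e-05) and the shuttle factor gene Rad23b 1.98-fold (0.97, adjusted p = 0.000104), and both rose after rescaling. The gene that fell after rescaling was Faf1, another VCP cofactor, at -0.64 (limma adjusted p = 0.00200), named after its values were seen.

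Of 10 transcription regulators known to act on proteasome or antioxidant genes, 8 rose and none fell in deposited TPM. The shares of all tested genes were 59.0% and 9.09%. After rescaling 2 rose and none fell, against 22.2% and 24.0% of all tested genes. Nfe2l1 encodes NRF1, the factor that raises proteasome genes when the proteasome is inhibited. It had 276, 245 and 235 TPM in overexpression libraries, against 158, 175 and 178 TPM in control libraries (log2 difference 0.56, limma adjusted p = 0.000960; -0.06 after rescaling, adjusted p = 0.635). Nfe2l2, which encodes NRF2, had 123, 170 and 110 TPM in overexpression libraries, against 54.8, 64.4 and 65.1 TPM in control libraries (1.09, adjusted p = 0.000473; 0.47 after rescaling, adjusted p = 0.0185). Mafg, a small partner of both factors, was 2.11-fold higher (1.03, adjusted p = 0.000151; 0.43 after rescaling, adjusted p = 0.0127). Nfe2l2 and Mafg thus rose under both scalings and Nfe2l1 in deposited TPM alone.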

How the data were processed

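Per the labels' protocols, oligo(dT)-selected RNA of 6 left ventricles was made into TruSeq libraries and read as strand-specific pairs. The authors deposited TPM per gene symbol, named so per the file headers, for 31273 genes, of which 9375 were 0 in every library. The submitters' processing notes name featureCounts 2.0.3, edgeR 3.40.2, GATK 4.2.6.1, STAR-Fusion 1.11.0 and a build mm8 with no role, with aligner and annotation not given in the sources used here. The 12404 genes whose mean reached 1 TPM were tested on log2(TPM + 1) by limma 3.58.1 (R 4.3.3), two-sided with trended moderation, Benjamini-Hochberg adjustment over all of them and a threshold of 0.05, over all 6 libraries without covariates. Differences on this scale understate changes of low genes, and folds are ratios of mean TPM. TPM has a fixed total, so the values were also divided by a median-of-ratios factor per library (ratios to the geometric mean, genes above 0 in every library) and fitted again. The 2 genes that missed the filter were not tested, and the lowest control mean of a tested proteasome gene was 1.49 TPM, so none passed through the overexpression group alone. Depth was estimated from the steps of low TPM values and gene lengths of GENCODE M21, whose exons also gave the overlaps.

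The members and lists were chosen with earlier results of these data known. The rule for named genes took every immunoproteasome, activator, inhibitor and tissue-restricted gene, the other members called lower in TPM or called after rescaling, the extremes of difference and level in each role, and the 3 smallest p of each list. Exceptions are stated where they appear, apart from Psmb5, Psmg4, Nlrc5, Erap1, Uchl5, Dcn, Pecam1, Tek, Cd3e and Cd8a, which also lie outside the rule. The ratios to the core mean were likewise outside it and were not tested. The labels do not say that libraries are separate animals beyond those title numbers, and no batch is given. Xist and Ddx3y set overexpression replicate 1 apart as another animal than the other libraries. The p-values cover only the spread among these libraries. That spread may be technical within the control group and between overexpression replicates 2 and 3. Replicate numbers only name libraries. The fit was tested on simulated libraries. Tables and figures used Python 3.11.15, numpy 2.4.6, pandas 2.3.3, scipy 1.17.1 and matplotlib 3.10.9. Alternatives were pseudocounts of 0.1 and 0.5, no filter, a filter of 5 TPM, 3 other scalings, an untrended fit and each library left out. Splicing was not analysed here. The values of 1 gene of the ubiquitin list are not reported here.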

Additional observations from a re-analysis of the deposited data

How the results depend on the processing

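The scale decided the number of calls. The 45 rises in deposited TPM compared with 22 under median-of-ratios rescaling, 29 under quantile normalization and 37 without mitochondrially encoded genes. The falls in the same order numbered 4, 3 and 3, against 1 in deposited TPM. Over all tested genes, 2963 of 12404 rose under quantile normalization and 5382 of 13420 without mitochondrially encoded genes. Falls over all tested genes numbered 2972 of 12404 under rescaling, 2816 of 12404 under quantile normalization and 1796 of 13420 without mitochondrially encoded genes. In deposited TPM they numbered 1127 of 12404. The median log2 difference of all tested genes was still 0.32 without mitochondrially encoded genes. Leaving out a library gave 43 to 45 rises and 1 fall in deposited TPM, and 14 to 23 rises and 3 falls after rescaling. Over the 12273 to 12508 genes tested in these fits, 6198 to 7212 rose and 950 to 1088 fell in deposited TPM. After rescaling 2007 to 2647 of them rose and 2407 to 2841 fell. Without control replicate 2 the rescaled rises numbered 14, beside 2164 of 12489 over all tested genes. No alternative ended the calls of Psmd14, Psma5 or Psme4, whose log2 differences spanned 0.93 to 1.67, 0.91 to 1.64 and -2.18 to -1.36 over both scales.

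Directions turned under median-of-ratios rescaling for Psma4 (-0.0699), Psmb2 (-0.13), Psmb7 (-0.0300), Psmb10 (-0.22), Psmd9 (-0.0916), Psme1 (-0.60), Psme3 (-0.00597) and Psmg2 (-0.25). Under quantile normalization they turned for Psmb10 (-0.15), Psmd9 (-0.0901), Psme1 (-0.45) and Psmg2 (-0.17). Psme1 also stood at -0.26 without mitochondrially encoded genes and ranged over -0.0489 to 0.105 with a library left out, the lowest without control replicate 3. Near 0 after rescaling, leaving out a library gave -0.17 to 0.0163 for Psma4, -0.104 to 0.0515 for Psmb7 and -0.0533 to 0.0416 for Psme3. Psma4, Psmb7 and Psme3 turned without overexpression replicate 2, Psmb7 also without control replicate 3 (0.0110) and Psme3 also without overexpression replicate 3. The log2 ratio differences ranged with a library left out over 0.0538 to 0.50 for Psmb8 to Psmb5, -0.0202 to 0.55 for Psmb9 to Psmb6 and -0.26 to -0.17 for Psmb10 to Psmb7. The causes were not tested. No paired analysis was possible because the labels give the groups no shared replicate numbers. Depth limits the low genes most, Psmb9, Psma8 and Psmb11 among them, and the 3 libraries of a group limit every ratio.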

Other observations

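Genes of ubiquitin and its activation mostly rose in deposited TPM, as did most tested genes. Of 6 such genes, 4 rose and none fell, against 59.0% and 9.09% of all tested genes. After rescaling 1 rose, Ubb, and 1 fell, against 22.2% and 24.0%. The polyubiquitin gene Ubb had 647, 798 and 712 TPM in overexpression libraries, against 383, 338 and 366 TPM in control libraries (log2 difference 0.98, limma adjusted p = 8.78e-05; 0.36 after rescaling, adjusted p = 0.0247). Rps27a, which encodes ubiquitin fused to a ribosomal protein, was 1.97-fold higher (0.96, adjusted p = 0.000304) and was not called after rescaling (0.34, adjusted p = 0.0513). Uba6, a ubiquitin-activating enzyme, was 2.07-fold higher (0.87, adjusted p = 0.00225; 0.34 after rescaling, adjusted p = 0.102).

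Subunits present in equal copies in the particle differed in the balance of their transcripts, in ratios chosen after their values were seen and given without a test. Psma5 to Psma4 was 0.875, 1.15 and 1.01 in overexpression libraries, against 0.516, 0.484 and 0.478 in control libraries. Psmd14 to Psmd4 was 1.20, 1.38 and 1.19 in overexpression libraries, against 0.813, 0.797 and 0.723 in control libraries. Psmc3 to Psmc4 was 2.66, 2.09 and 2.33 in overexpression libraries, against 3.62, 3.65 and 3.74 in control libraries. The groups did not overlap in any of these 3 ratios. Psme4 to Psme3, the nuclear caps, was 0.718, 0.558 and 0.654 in overexpression libraries, against 2.82, 2.72 and 2.60 in control libraries, and Psme2 to the core mean overlapped, at 0.633, 0.561 and 0.576 in overexpression libraries, against 0.587, 0.556 and 0.567 in control libraries.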
